A study of Mus musculus with 6 samples.

Results

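Stem-like medulloblastoma cells carrying the guide sgMiat-96 were compared with cells carrying the guide sgMiat-6. The members are the 4 RNA-seq libraries labelled with these guides, 2 of each, out of 6 in the series, and all genes entered the comparison. Medulloblastoma is a tumour of the cerebellum. All 6 libraries carry the genotype Math1-Cre; SmoM2, in which the Math1 (Atoh1) promoter drives Cre recombinase in granule neuron progenitors and SmoM2 is a constantly active version of Smoothened, the receptor-like protein through which Hedgehog signals. The 4 libraries compared are labelled as Miat knockdown, and the other 2 carried sgGal4-4, named for a yeast protein, and are labelled WT. The labels do not say whether the cells of a guide were a clone or a pool, which Cas9 protein was used, or whether the 2 libraries of a guide came from separate cultures. The p-values then measure only the spread between libraries of a group, pooled over all 6 libraries with the controls included. That spread may be technical.

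Miat is a long noncoding RNA of the cell nucleus that is expressed in the nervous system. Guides against the same gene share that target and differ in the site they recognise and in the other sites they may bind. Cells from Math1-Cre; SmoM2 tumours carry the Hedgehog pathway in its active state, and Ptch1 and Gli1 are among its best known target genes.

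The cells of the 2 guides differed in expression at many genes. Cells with sgMiat-96 held more RNA of Apoe, the lipid carrier, of Gpm6a, a neuronal membrane glycoprotein, and of the secreted ligand gene Wnt4, by 4.11-fold to 6.28-fold. They held less of Scarb1, the receptor for high-density lipoprotein, of Cd93, a cell-surface glycoprotein, and of Gria3, an AMPA receptor subunit, by 3.03-fold to 7.70-fold. Glycolysis, lysosome and cholesterol synthesis genes were called higher with sgMiat-96 more often than all genes, and they stayed so after trends over transcript length and GC content were removed. A larger shift that favoured short transcripts with sgMiat-96, ribosomal protein genes among them, ran through the whole comparison and differed from library to library. Genes of an end region of chromosome 4 were higher together, and genes of a region of chromosome 5 lower together. Neither guide left a Miat read.

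Miat (chr5:112213228-112228948, minus strand, GRCm38.p6) had 140 and 139 counts in the 2 sgGal4-4 libraries. It had 0 counts in each of the 4 sgMiat libraries. At their depth, 3 counts in a library correspond to 0.149 to 0.173 counts per 1000000 (CPM), and a level under that was not detectable. No difference in Miat between the guides could therefore be measured.

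The 4 libraries were alike in depth and unlike in composition. Their count columns summed to 27313364 to 29671461 over all transcript rows. Across genes, Spearman correlations were 0.979 between the sgMiat-6 libraries, 0.980 between the sgMiat-96 libraries, and 0.971 to 0.978 between libraries of the 2 guides. The chi-square per gene between replicates, which is 1 for sampling noise alone, was 19.1 for sgMiat-6, 14.0 for sgMiat-96 and 4.12 for the control. The first sgMiat-6 library and the first sgMiat-96 library stood farthest apart. Among the 2491 genes called lower with sgMiat-96, 71.0% had the order sgMiat-6 replicate 1, sgMiat-6 replicate 2, sgMiat-96 replicate 2, sgMiat-96 replicate 1 from highest to lowest, an order that 20.4% of all tested genes had. The reverse order held for 70.7% of the 2359 genes called higher and for 20.1% of all tested genes. Many of the list counts that moved by over 1.5 times without sgMiat-96 replicate 1 are given without it as well.

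Of 13220 genes tested, 4850 (36.7%) differed between the guides at an adjusted p under 0.05 by edgeR's quasi-likelihood test. With sgMiat-96, 2359 genes (17.8%) were higher and 2491 (18.8%) were lower, and 728 (5.51%) differed at least 2-fold. Both libraries of one guide lay above both of the other in 69.8% of tested genes. The count depended on single libraries. It fell to 1124 without sgMiat-96 replicate 1 (4.69% higher and 3.6% lower of those tested) and to 2253 without sgMiat-6 replicate 1 (8.4% and 8.19%), and it was 4246 without sgMiat-96 replicate 2 and 5740 without sgMiat-6 replicate 2. With scaling to the total count in place of TMM, 1380 genes were higher and 3720 lower, so that 27.1% of calls were higher in place of 48.6%, and the median log2 fold change of all genes was -0.14 in place of 0.01.

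**Figure D1:**
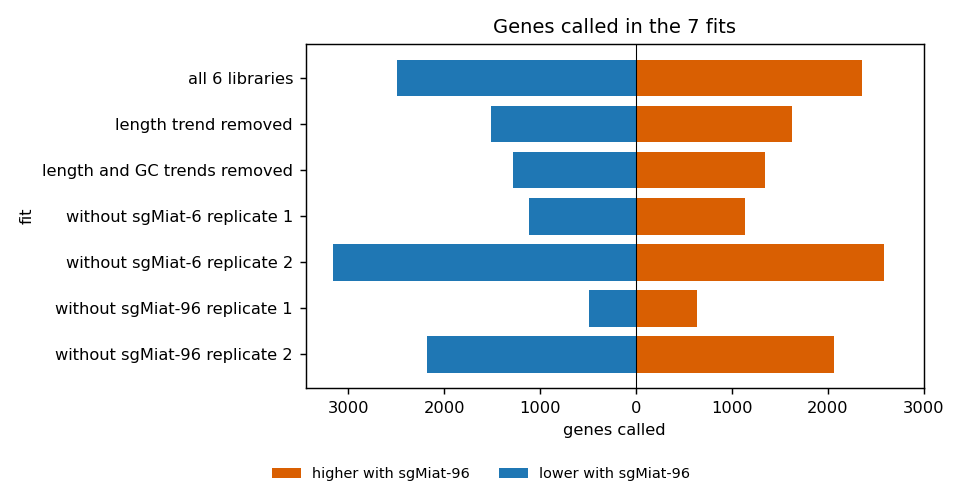
Genes called in each of 7 fits. Bars to the right count genes higher with sgMiat-96 and bars to the left genes lower, at an adjusted p under 0.05; leaving out sgMiat-96 replicate 1 gave the smallest count, 1124, and leaving out sgMiat-6 replicate 2 the largest, 5740.

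Transcript length moved with the comparison. Transcripts were split into 5 equal classes by length. In the shortest class (20 to 1554 bases) the median log2 fold change was 0.43, and 44.0% of genes were called higher with sgMiat-96. In the longest class (4704 to 101674 bases) it was -0.41, and 49.7% were called lower. The classes between them had medians of 0.19, 0.01 and -0.16. The same tilt, the median of the shortest class minus that of the longest on a log2 scale, was -0.27 and 0.11 in the 2 sgMiat-6 libraries and 0.87 and 0.53 in the 2 sgMiat-96 libraries, each against the mean of all 6 libraries. It was -0.65 and -0.58 in the controls, so the groups did not overlap but replicates of a guide differed as well. GC content moved alongside it. The median was -0.31 in the class of transcripts lowest in GC and 0.31 in the highest, again of 5 classes. With the length trend removed from each library, 3144 genes (23.8%) were called, 1629 higher and 1515 lower, and with length and GC trends removed 2626 (19.9%) were called, 1343 higher (10.2%) and 1283 lower (9.7%). Whether the tilt came from the cells or from RNA and library preparation was not tested.

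**Figure D2:**
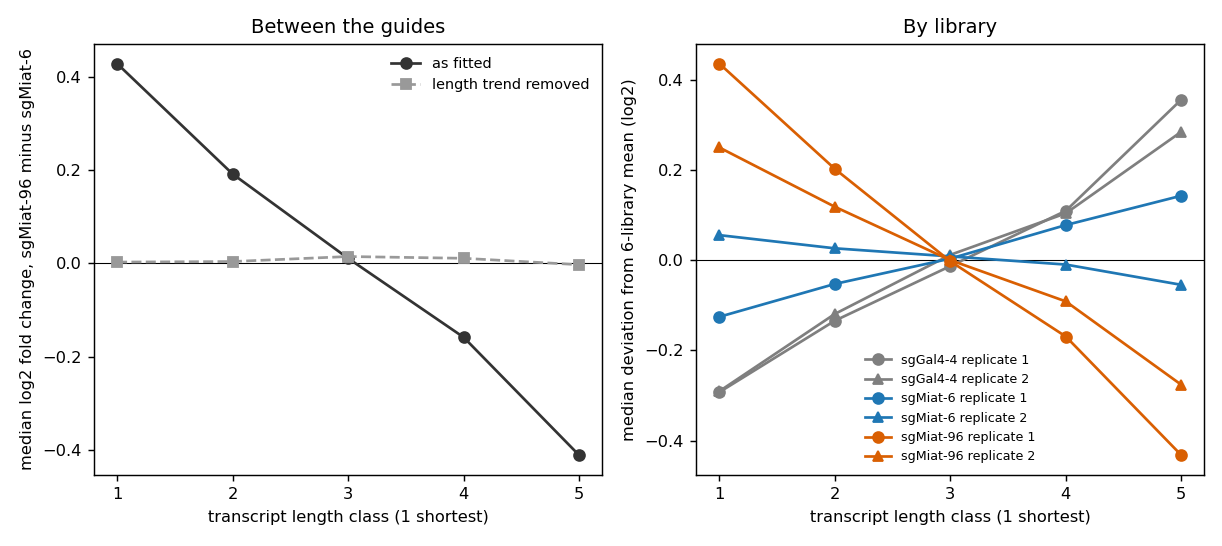
Transcript length and expression. The left panel gives the median log2 fold change (sgMiat-96 minus sgMiat-6) by length class, as fitted and with the length trend removed; the right panel gives each library's median deviation from the 6-library mean (log2). The fitted medians run from 0.43 to -0.41, and the 2 sgMiat-96 libraries tilt toward short transcripts by 0.87 and 0.53.

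A stricter set of genes was therefore counted. It holds the genes called in the same direction in 7 fits, namely the fit to all libraries, the fits with the length trend or the length and GC trends removed, and the fits without each of the 4 sgMiat libraries. There were 721 such genes (5.45% of those tested), 383 higher with sgMiat-96 (2.9%) and 338 lower (2.56%). Of these, 287 (2.17% of those tested) differed at least 2-fold, 101 higher (0.764%) and 186 lower (1.41%). The 7 fits share libraries and are not independent, and none of them both leaves out a library and removes a trend. The library order given above was still common in this set. It held for 76.3% of the 338 lower genes, and its reverse for 65.3% of the 383 higher genes, against 20.4% and 20.1% of all tested genes. Genes below are said to hold in all 7 fits where they belong to this set.

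Genes of 2 chromosome regions stood apart from the rest. Medians over windows of 10000000 bases with at least 10 genes of at least 5 CPM ran from -0.27 to 0.37 over 244 windows, with length and GC trends removed, and the 2 regions were chosen after these were seen. In the window chr4:150000001-160000000, 35 of 57 genes (61.4%) were called higher with sgMiat-96, against 11.9% of the 10384 such genes in all. The median log2 fold change was 0.37 there and 0.01 on the rest of chromosome 4. In the region chr5:120000001-150000000, 123 of 269 genes (45.7%) were called lower and 5 higher, against 10.4% lower in all, and the median was -0.27 there and -0.01 on the rest of chromosome 5. Miat lies on the same chromosome outside that region. A window of chromosome 18 also had many calls, 45 of 120 genes higher and 11 lower, with a median of 0.15. The other windows of that chromosome held 17 to 41 genes. Whether genes of this window share reads was not tested, so its calls may not be separate.

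Replicates of a guide lay close together in both regions. For each library, the median log2 deviation from the control mean was taken over a region, relative to the median over all genes, with 0.5 CPM added to each value. Length and GC trends were not removed from these values. Without that removal the median log2 fold change between the guides was 0.50 in the chromosome 4 region and -0.14 in the chromosome 5 region. On chromosome 4 it was 0.68 and 0.82 with sgMiat-6 and 1.32 and 1.29 with sgMiat-96. On chromosome 5 it was 0.39 and 0.45 with sgMiat-6 and 0.26 and 0.28 with sgMiat-96. Both guides thus lay above the control in both regions, sgMiat-96 farther on chromosome 4 and sgMiat-6 farther on chromosome 5. The regions were chosen by the difference between the guides, so its return in these values is not separate evidence. The first region holds Eno1 and Rpl22, and the second holds Scarb1, Fzd9, Hsph1 and the amino acid transporter gene Slc7a1, each given further on. The part of these regional shifts in the differences of single genes was not tested.

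**Figure D3:**
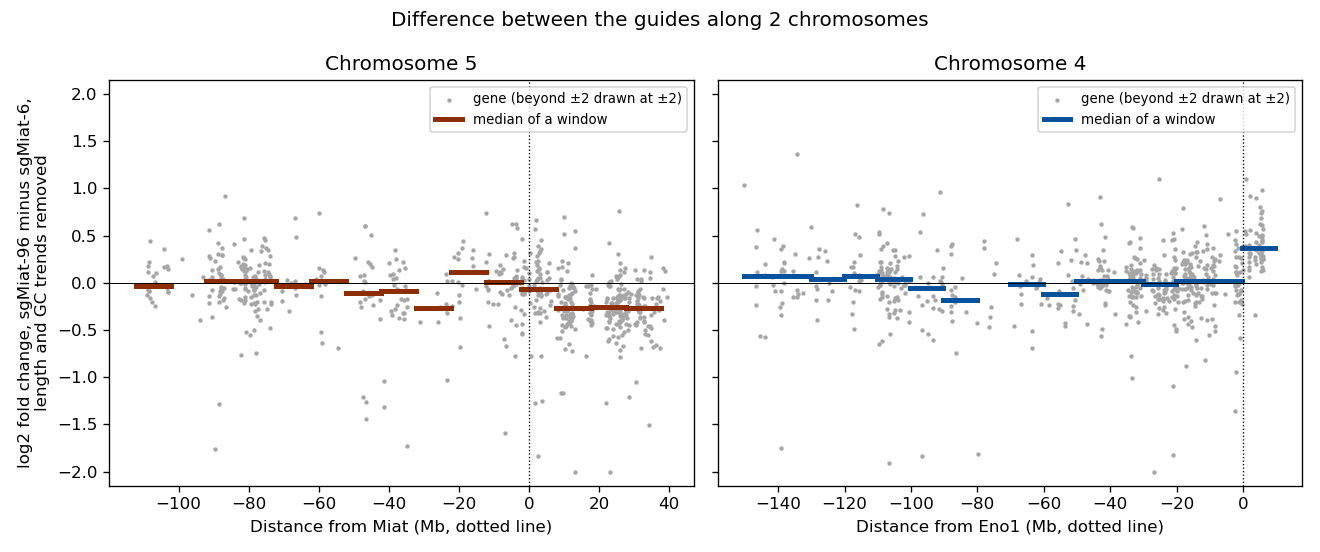
Differences along chromosomes 5 and 4. Each point is a gene of at least 5 CPM at its distance from Miat or Eno1 (x axis, Mb) and its log2 fold change between the guides with length and GC trends removed (y axis); bars are medians of windows of 10000000 bases. Bars lie near -0.27 in the last windows of chromosome 5, and in 1 window of 10 genes before Miat, and rise to 0.37 at the end of chromosome 4.

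Scarb1 (chr5:125277087-125341094), which takes up cholesterol esters from high-density lipoprotein, fell with close replicates. Its level was 83.8 and 87.3 CPM in the sgMiat-6 libraries, 11.9 and 10.3 CPM in the sgMiat-96 libraries, and 45.1 and 43.8 CPM in the controls. The log2 fold change between the guides was -2.95 ± 0.13 (SE, n = 2 libraries a group), with an edgeR quasi-likelihood adjusted p of 1.2e-07. The guides lay on either side of the control. The gene lies in the chromosome 5 region, whose median was far smaller, at -0.27 with length and GC trends removed. In bulk RNA, fewer cells of a kind and less RNA per cell cannot be told apart, here and below.

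Cd93 (chr2:148436651-148443535), a transmembrane glycoprotein best known from endothelial and myeloid cells, was nearly absent from the controls. It stood at 0.206 and 0.101 CPM there, at 18.1 and 15.8 CPM with sgMiat-6 and at 2.14 and 2.37 CPM with sgMiat-96. Its log2 fold change between the guides was -2.91 ± 0.22 (SE), with an edgeR adjusted p of 2.2e-05. The endothelial markers Cldn5 and Ly6c1 had 0 counts in all 4 sgMiat libraries. The 15 endothelial markers summed to 39.0 to 39.8 CPM with sgMiat-6, 46.0 to 55.4 CPM with sgMiat-96 and 51.3 to 57.2 CPM in the controls. Of these, Plvap, a protein of endothelial pores, went from 19.5 and 22.4 CPM to 36.8 and 30.7 CPM. Flt1, a receptor for vascular endothelial growth factor that lies in the chromosome 5 region, fell like Cd93, from 10.1 and 8.52 CPM to 4.27 and 4.85 CPM (log2 fold change -1.03, edgeR adjusted p 0.0037), and held in 6 of 7 fits. Microglia and macrophage markers summed to 72.2 to 72.6 CPM and 94.5 to 99.1 CPM, with 11 of 20 at 0 counts in all 4 libraries, Cx3cr1, Aif1 and Ptprc among them.

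Single genes of glutamate receptors differed in both directions. Gria3 (chrX:41400819-41678601) had 0 counts in the controls, 44.1 and 33.4 CPM with sgMiat-6 and 11.97 and 13.6 CPM with sgMiat-96, a log2 fold change of -1.60 ± 0.17 (SE) and an edgeR adjusted p of 0.00029. Gria2, the AMPA receptor subunit that limits calcium entry, stood at 70.9 and 58.8 CPM with sgMiat-6 and at 29.5 and 30.8 CPM with sgMiat-96, where the controls held 37.3 and 36.5 CPM. Its log2 fold change of -1.10 became -0.42 with length and GC trends removed. Neto1, an auxiliary subunit of kainate receptors, had 132 counts over the 2 sgMiat-6 libraries and 1 over the 2 sgMiat-96 libraries. Scaled to library size, that is a ratio of 117 with a 95% interval of 20.6 to 4639 that covers counting error only. Grm5, a metabotropic receptor, went the other way, from 0.843 and 0.612 CPM to 1.91 and 3.29 CPM, far under its 96.2 and 82.3 CPM in the controls. These 4 held in all 7 fits. Of 13 tested glutamate receptor genes, 2 were called higher and 4 lower, where 17.8% of all genes were called higher and 18.8% lower. Leaving out sgMiat-96 replicate 1 gave 1 and 3.

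Several of the largest falls came with a wide spread between the sgMiat-6 replicates. Zbed6 (chr1:133655879-133660885), a transcription factor gene that lies within an intron of Zc3h11a, stood at 29.5 and 6.84 CPM with sgMiat-6, at 0.169 and 0.693 CPM with sgMiat-96 and at 79.3 and 65.2 CPM in the controls. The fitted log2 fold change was -5.39 ± 0.73 (SE), with an edgeR adjusted p of 0.00062. Reads from a gene and an overlapping host cannot be told apart without strand, which the labels do not give. Uhmk1, a kinase, went from 28.0 and 8.88 CPM to 1.69 and 2.77 CPM. Cbl, a ubiquitin ligase that turns off receptor tyrosine kinases, went from 24.99 and 10.004 CPM to 2.70 and 2.37 CPM. In each of these, the first sgMiat-6 library was 2 or more times as high as the second, and the call held in all 7 fits. Lmbrd2 (-2.85), Slfn9 (-2.61), Ulbp1 (-2.57) and Lnpep (-2.52) on the log2 scale also had a first sgMiat-6 library far above the second and held in all 7 fits, while Itgb8 (-2.78) and Nrip1 (-2.74) held in 6.

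**Figure D4:**
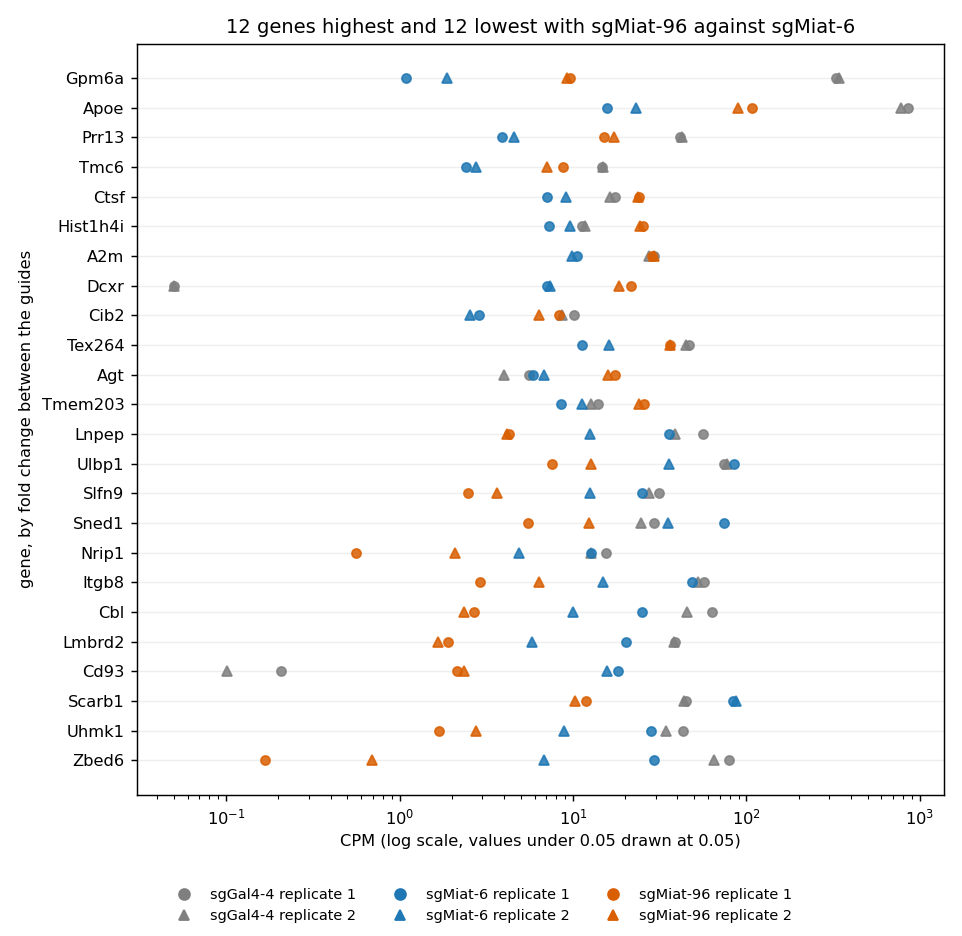
Levels of the 12 genes highest and the 12 lowest with sgMiat-96 against sgMiat-6, among called genes that averaged 5 CPM or more. The x axis is CPM on a log scale with values under 0.05 drawn at 0.05, colours give the guide and symbols the replicate. Scarb1 and Cd93 have replicates close together, while the first sgMiat-6 library stands apart from the second for Zbed6, Uhmk1 and Lmbrd2.

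Hedgehog pathway genes did not move as one. Ptch1 (chr13:63508328-63573460), the receptor that holds Smoothened in check and a target of the pathway, stood at 37.1 and 18.8 CPM with sgMiat-6, at 6.46 and 9.64 CPM with sgMiat-96 and at 82.3 and 73.5 CPM in the controls. Its log2 fold change between the guides was -1.80 ± 0.27 (SE), with an edgeR adjusted p of 0.00088. Gpr161, a receptor of the cilium that restrains the pathway, fell from 14.3 and 7.55 CPM to 1.97 and 3.35 CPM. Evc, a ciliary protein that works with Smoothened, rose from 0.347 and 0.306 CPM to 1.57 and 1.33 CPM, where the controls held 18.1 and 15.5 CPM. These 3 held in all 7 fits. The target gene Gli1, named here after its values were seen, was at 1.83 and 2.81 CPM with sgMiat-6 and at 2.25 and 1.85 CPM with sgMiat-96, so the groups overlapped (edgeR adjusted p = 0.65). Of 24 tested genes of the pathway, 3 were called higher and 6 lower, where 17.8% of all genes were called higher and 18.8% lower, so the list's shares were near those of all genes. Removing length and GC trends left 1 called higher and 3 lower, and without sgMiat-96 replicate 1 the counts were 1 and 2.

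Apoe (chr7:19696244-19701310), which carries lipids between brain cells, rose with close replicates. It stood at 15.7 and 22.97 CPM with sgMiat-6 and at 107 and 88.9 CPM with sgMiat-96, both far under the 851 and 778 CPM of the controls. The log2 fold change was 2.34 ± 0.16 (SE), with an edgeR adjusted p of 1.4e-05. Gpm6a (chr8:54779434-55060878) showed the same order of the 3 groups, with 1.09 and 1.89 CPM, 9.56 and 9.18 CPM, and 327 and 341 CPM in the controls. On the log2 scale its rise was 2.65 ± 0.21 (SE), with an edgeR adjusted p of 2.2e-05. Prr13 rose from 3.92 and 4.59 CPM to 15.01 and 17.3 CPM, with controls at 41.6 and 42.7 CPM. A2m, the secreted protease inhibitor alpha-2-macroglobulin, rose from 10.6 and 9.85 CPM to 28.5 and 29.3 CPM, close to the 29.2 and 27.5 CPM of the controls.

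Wnt4 (chr4:137277635-137299501) stood at 2.13 and 1.58 CPM with sgMiat-6, at 8.09 and 7.21 CPM with sgMiat-96 and between them, at 5.05 and 5.37 CPM, in the controls. On the log2 scale it rose by 2.04 ± 0.24 (SE), with an edgeR adjusted p of 0.00035. Ncan, the brain proteoglycan neurocan, was near the detection limit without sgMiat-96, at 0.397 and 0.102 CPM with sgMiat-6 and 0.258 and 0.152 CPM in the controls, and reached 3.88 and 6.18 CPM with it. Agt, angiotensinogen, rose from 5.85 and 6.79 CPM to 17.4 and 15.9 CPM, above the controls at 5.56 and 4.00 CPM. Dcxr, an enzyme of xylulose metabolism, had 0 counts in the controls, 7.04 and 7.35 CPM with sgMiat-6 and 21.5 and 18.4 CPM with sgMiat-96. All 4 held in all 7 fits. Of 28 proteoglycan and matricellular genes, 4 were called higher and 3 lower as fitted, smaller shares than the 17.8% and 18.8% of all genes. With length and GC trends removed 4 were called higher and 4 lower, larger shares than the 10.2% and 9.7% of all genes. The matrix glycoprotein gene Tnc fell from 1507 and 1490 CPM to 633 and 795 CPM, with controls at 2762 and 2423 CPM, and the collagen gene Col5a2 fell from 26.6 and 23.9 CPM to 7.81 and 11.8 CPM, with 0 counts in the controls. The frizzled receptor gene Fzd9 also fell, from 12.2 and 11.9 CPM to 3.20 and 4.33 CPM, and lies in the chromosome 5 region. Slc7a1, in the same region, fell from 228 and 195 CPM to 90.3 and 118 CPM.

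Some genes were near the detection limit with one guide. In 33 called genes, 1 guide had 3 counts or fewer over its 2 libraries, 18 of them higher and 15 lower with sgMiat-96, and 5 of the 33 held in all 7 fits. Plcd1, a phospholipase, had 0 counts with sgMiat-6, 48 with sgMiat-96 and 305 in the controls, and was at least 18.1-fold higher with sgMiat-96 taking the group's floor as 3 counts. Aplp1, a relative of the amyloid precursor protein, had 2 and 29 counts with the guides and 1016 in the controls, a scaled ratio of 16.4 with a 95% interval of 4.15 to 142. Slc43a3, a purine base transporter, had 3 and 52 counts and 5 in the controls, a ratio of 19.6 with an interval of 6.35 to 98.2. Aplp1 was thus nearly lost with both guides, while Slc43a3 was as low in the controls as with sgMiat-6. These 3 genes were chosen after their values were seen.

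Genes of glycolysis, which turns glucose into pyruvate and lactate, were higher with sgMiat-96. Of 23 tested, 14 were called higher and 2 lower, with a median log2 fold change of 0.41 where that of all genes was 0.01 and 17.8% of all genes were called higher. With length and GC trends removed, 13 were called higher and 1 lower, against 10.2% higher in all, the median was 0.28, and 10 genes held in all 7 fits. Eno1 (chr4:150236708-150248879), the enolase gene, stood at 2345 and 2676 CPM with sgMiat-6, at 4401 and 4180 CPM with sgMiat-96 and at 1301 and 1349 CPM in the controls. The fitted log2 fold change was 0.77 ± 0.11 (SE), with an edgeR adjusted p of 0.00063. With length and GC trends removed it was 0.39, near the median of 0.37 of its chromosome 4 region. Gapdh rose from 2076 and 2281 CPM to 3925 and 3420 CPM, and the lactate dehydrogenase genes Ldha and Ldhb by 0.56 and 0.77 on the log2 scale. Genes like Eno1 and Gapdh have processed copies in the genome, and their counts are uncertain to that extent. Without sgMiat-96 replicate 1, 10 of the 23 were still called higher, and without sgMiat-6 replicate 1, 11 were.

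Targets of the hypoxia response outside glycolysis included genes that rose as well. Of 18 tested, 6 were called higher and 1 lower, against 17.8% and 18.8% of all genes, and 10 were called higher with length and GC trends removed, against 10.2%. The fitted count was 4 higher without sgMiat-96 replicate 1. Bnip3, a mitophagy receptor, stood at 62.8 and 62.4 CPM with sgMiat-6 and at 109 and 101 CPM with sgMiat-96, above 22.3 and 26.1 CPM in the controls. Fam162a rose from 87.9 and 114 CPM to 206 and 199 CPM. Ddit4, an inhibitor of mTOR, stood at 184 and 185 CPM, at 322 and 330 CPM, and between them, at 243 and 207 CPM, in the controls. These 3 held in all 7 fits.

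Lysosome and autophagy genes rose in 19 of 40 tested, fell in 2, and had a median log2 fold change of 0.26, against 17.8% and 18.8% of all genes called. With length and GC trends removed, 15 were called higher and 2 lower, with a median of 0.16, against 10.2% and 9.7% in all. Without sgMiat-96 replicate 1, 9 were called higher. Ctsf (chr19:4855165-4860918), a cathepsin, stood at 7.09 and 9.14 CPM with sgMiat-6, at 24.1 and 23.8 CPM with sgMiat-96 and at 17.4 and 16.3 CPM in the controls, a log2 fold change of 1.56 ± 0.16 (SE) with an edgeR adjusted p of 0.0002. Gaa, the enzyme that breaks down glycogen in lysosomes, rose from 30.4 and 35.5 CPM to 64.1 and 77.9 CPM, and Grn, progranulin, from 175 and 188 CPM to 297 and 293 CPM. The membrane protein gene Scarb2, chosen after its values were seen, fell from 117 and 94.1 CPM to 63.3 and 70.1 CPM and held in all 7 fits.

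Many lysosomal promoters carry the palindrome TCACGTGA, the core of a site bound by Tfeb. In RefSeq promoters of GRCm38.p6, from 250 bases before to 50 after a start, it was found in 6 of 34 promoters of 30 genes of the list and in 320 of 32851 promoters of all genes (0.974%). Of all 30 genes, 6 held it. Of the 16 genes with a promoter in the table that were called higher, 3 held it, a share close to that of the 30. Promoters of 2 of these, which held in all 7 fits, are shown 5′ to 3′ with the palindrome, the same on both strands, in capitals. Ctsa lies at chr2:164833523-164833822 on the plus strand, and Ctsd at chr7:142387778-142388077 on the minus strand.
Ctsa: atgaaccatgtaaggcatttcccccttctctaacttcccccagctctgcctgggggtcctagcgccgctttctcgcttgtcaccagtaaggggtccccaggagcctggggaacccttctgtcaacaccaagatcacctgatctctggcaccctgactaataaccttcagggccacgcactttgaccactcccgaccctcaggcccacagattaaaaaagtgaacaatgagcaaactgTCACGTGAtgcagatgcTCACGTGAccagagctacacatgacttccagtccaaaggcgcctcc
Ctsd: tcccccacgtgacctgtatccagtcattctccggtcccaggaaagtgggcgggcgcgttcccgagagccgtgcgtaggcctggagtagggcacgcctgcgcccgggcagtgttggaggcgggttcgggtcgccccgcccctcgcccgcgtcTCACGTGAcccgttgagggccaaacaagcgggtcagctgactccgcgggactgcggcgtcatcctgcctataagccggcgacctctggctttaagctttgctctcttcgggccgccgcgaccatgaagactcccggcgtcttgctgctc
Ctsa, the lysosomal protective protein, stood at 107 and 121 CPM with sgMiat-6, at 183 and 166 CPM with sgMiat-96 and at 75.8 and 78.2 CPM in the controls. Ctsd, cathepsin D, stood at 701 and 775 CPM, at 1152 and 1085 CPM, and at 350 and 344 CPM in the controls. Both were chosen after their values were seen, and the match is a description of these letters and not of binding.

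Cholesterol synthesis genes, which lie on the path from acetyl-CoA to sterols, rose in 12 of 25 tested and fell in 2, against 17.8% and 18.8% of all genes. Their median log2 fold change was 0.25. With length and GC trends removed 15 were called higher, with a median of 0.34, where 10.2% of all genes were called higher. Without sgMiat-96 replicate 1 the count was 6 as fitted and 11 with these trends removed. Fdps, the farnesyl diphosphate synthase gene, rose from 270 and 333 CPM to 520 and 504 CPM, with controls at 227 and 240 CPM. Fdft1, squalene synthase, rose from 159 and 169 CPM to 256 and 242 CPM, and the mevalonate kinase gene Mvk from 64.5 and 74.2 CPM to 118 and 114 CPM. Idi1 and Stard4 were the 2 called lower, at log2 fold changes of -0.52 and -0.76, and neither was called with both trends removed. The fall of Scarb1 given above stands beside these rises.

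The pentamer CCAAT, the core of a box bound by NF-Y that is common in sterol-regulated promoters, was found on either strand in 16 of 20 promoters of 17 cholesterol synthesis genes. It was found in 12289 of 32851 promoters of all genes (37.4%). The pentamer was held by 16 of the 17 genes, Idi1 among them, which was called lower. Of 10 genes called higher with a promoter in the table, 9 held it, so it did not set the genes called higher apart. The promoters of 2 genes that held in all 7 fits are shown 5′ to 3′ with CCAAT and its reverse complement ATTGG in capitals. Mvd lies at chr8:122443373-122443672 and Tm7sf2 at chr19:6067801-6068100, both on the minus strand.
Mvd: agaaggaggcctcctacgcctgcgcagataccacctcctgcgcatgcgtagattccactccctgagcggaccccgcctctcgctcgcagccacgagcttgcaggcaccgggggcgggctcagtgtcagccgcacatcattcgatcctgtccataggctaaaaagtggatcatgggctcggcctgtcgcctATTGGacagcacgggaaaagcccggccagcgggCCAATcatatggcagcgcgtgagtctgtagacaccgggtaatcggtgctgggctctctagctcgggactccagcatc
Tm7sf2: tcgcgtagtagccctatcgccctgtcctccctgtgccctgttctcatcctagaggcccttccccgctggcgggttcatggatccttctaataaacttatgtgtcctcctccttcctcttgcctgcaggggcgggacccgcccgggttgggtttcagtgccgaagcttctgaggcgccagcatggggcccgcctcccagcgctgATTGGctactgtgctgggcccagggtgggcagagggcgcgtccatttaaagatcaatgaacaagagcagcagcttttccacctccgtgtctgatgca
Mvd, which decarboxylates mevalonate diphosphate, stood at 30.3 and 39.2 CPM with sgMiat-6, at 63.8 and 58.7 CPM with sgMiat-96 and at 34.7 and 33.4 CPM in the controls, and was chosen after its values were seen. Tm7sf2, a sterol reductase, stood at 26.3 and 31.5 CPM, at 54.9 and 48.6 CPM, and at 15.4 and 14.2 CPM in the controls. In both genes the guides did not overlap, as in 69.8% of all tested genes.

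Ferritin and glutathione genes, which handle iron and oxidants, rose in 18 of 36 tested members of the Nrf2 list and fell in 1, against 17.8% and 18.8% of all genes. The ferritin heavy chain gene Fth1 stood at 1240 and 1519 CPM with sgMiat-6 and at 2693 and 2248 CPM with sgMiat-96, above the controls at 1145 and 1158 CPM. Its light chain partner Ftl1 rose by 0.83 on the log2 scale as fitted and by 0.22 with length and GC trends removed. Hmox1, heme oxygenase, rose from 118 and 123 CPM to 183 and 181 CPM, near the 172 and 170 CPM of the controls. The list's median log2 fold change was 0.40 as fitted and 0.12 with both trends removed, where 13 genes were called higher, against 10.2% of all genes. Without sgMiat-96 replicate 1, 6 were called higher as fitted and 4 with both trends removed.

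Genes of the cytosolic ribosome were nearly all called higher as fitted. Of 81 tested, 76 were called higher with sgMiat-96, against 17.8% of all genes, with a median log2 fold change of 0.69. The median transcript length was 684 bases among them and 2844 bases for all genes tested. With the length trend removed, 37 were called higher and 2 lower, against 12.3% and 11.5% of all genes, and the median was 0.14. Rpl22 stood at 258 and 326 CPM with sgMiat-6, at 596 and 560 CPM with sgMiat-96 and at 189 and 169 CPM in the controls, and lies in the chromosome 4 region. Its log2 fold change of 0.99 became 0.90 without the length trend, while that of Rpl39 went from 1.26 to 0.60 and that of Rplp0 from 0.82 to 0.48. In total, 25 ribosomal protein genes held in all 7 fits. When sgMiat-96 replicate 1 was left out, 44 were called higher as fitted and 17 with length and GC trends removed. Many of these genes have processed copies, and their counts are uncertain to that extent.

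Other sets of short transcripts had fewer calls with the length trend removed. Among all genes, 17.8% were called higher as fitted, and 12.3% were called higher and 11.5% lower with that trend removed. Of 75 nuclear genes for subunits of oxidative phosphorylation, the pathway that makes ATP in mitochondria, 61 were called higher as fitted with a median of 0.49. With the length trend removed 6 were called higher and 6 lower, with a median of -0.01. Mitochondrial ribosomal protein genes went from 36 of 71 called higher to 10 higher and 6 lower, and their median from 0.37 to 0.03. Without sgMiat-96 replicate 1, 9 of the 75 and 6 of the 71 were called higher as fitted, and without sgMiat-6 replicate 1, 23 and 15. Histone genes of DNA replication were called higher in 15 of 42 as fitted and in 3 with the length trend removed, while their median of 0.91 became 0.30 and stayed above that of all genes. Called higher as fitted were 3 without sgMiat-96 replicate 1 and 8 without sgMiat-6 replicate 1. One of them, Hist1h4i, rose from 7.24 and 9.60 CPM to 25.4 and 24.2 CPM, above the controls at 11.3 and 11.7 CPM, and held in all 7 fits. Histone genes are near-identical copies, and polyadenylated reads of them are few, so these counts are uncertain. Atp5g2, a subunit of the ATP synthase, held in all 7 fits as well, at 152 and 183 CPM, 363 and 298 CPM, and 220 and 211 CPM in the controls.

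Some sets of long transcripts were called lower as fitted. Among all genes, 17.8% were called higher and 18.8% lower as fitted, and 10.2% and 9.7% with length and GC trends removed. Cadherin and protocadherin genes, which code for adhesion proteins and have a median length of 7042 bases, were called lower in 14 of 26 tested with a median log2 fold change of -0.52. Removing length and GC trends left 2 called higher and 7 lower, with a median of -0.25. Pcdh17, Pcdh7 and Cdh13 held in all 7 fits. Pcdh17 stood at 14.0 and 10.7 CPM with sgMiat-6, at 4.38 and 5.43 CPM with sgMiat-96 and between them, at 7.01 and 7.25 CPM, in the controls. Integrin and laminin genes went from 11 of 21 called lower to 1 higher and 5 lower. Semaphorin, plexin, netrin and slit genes, which guide axons, went from 4 higher and 13 lower of 36 to 4 higher and 5 lower, and their median changed sign, from -0.34 to 0.04. Genes that repair double-strand breaks and crosslinks went from 2 higher and 14 lower of 42 to 3 higher and 2 lower. The counts called lower as fitted without sgMiat-96 replicate 1 were 3 for cadherins, 2 for integrins and laminins, 4 for the guidance genes and 1 for repair. Collagen genes, with a median length of 5617 bases, had a median log2 fold change of 0.04, so not every set of long transcripts had a lower median. Of 24 tested, 0 were called higher and 4 lower as fitted, and the share called lower was no larger than the 18.8% of all genes. Removing length and GC trends left 0 called higher and 3 lower, against 10.2% and 9.7% of all genes.

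**Figure D5:**
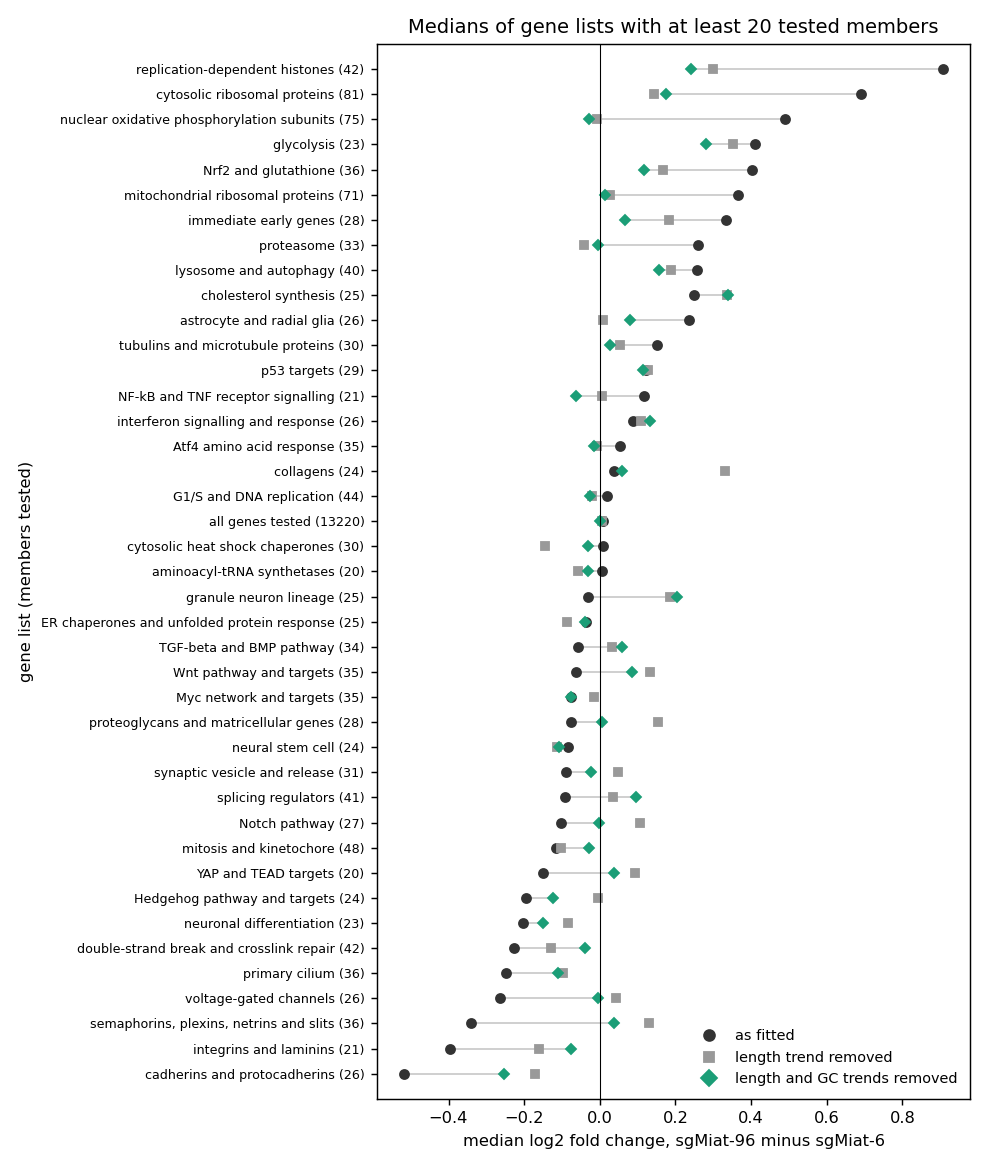
Median log2 fold change (sgMiat-96 minus sgMiat-6) of the 40 gene lists with at least 20 tested members, and of all genes tested. Circles are values as fitted, squares have the length trend removed and diamonds the length and GC trends. Ribosomal protein genes moved from 0.69 to 0.18, oxidative phosphorylation genes from 0.49 to -0.03, and cholesterol synthesis genes from 0.25 to 0.34.

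Cell division genes were called in both directions. Of 48 genes of mitosis and the kinetochore, 10 were called higher and 15 lower, where 17.8% of all genes were called higher and 18.8% lower. Their median log2 fold change was -0.12. With length and GC trends removed 5 were called higher and 8 lower, against 10.2% and 9.7% of all genes. The counts were 2 and 6 as fitted without sgMiat-96 replicate 1. The motor gene Kif20b fell from 50.2 and 34.4 CPM to 21.4 and 22.2 CPM, and the condensin gene Smc4 from 187 and 172 CPM to 113 and 115 CPM, and both held in all 7 fits. Mki67, a marker of cycling cells, stood at 305 and 306 CPM with sgMiat-6 and at 163 and 203 CPM with sgMiat-96. Its log2 fold change of -0.74 became -0.13 with both trends removed, and its transcript is 10075 bases long.

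Heat shock chaperones held a pair of genes that fell. Hsph1, a partner of Hsp70, stood at 175 and 166 CPM with sgMiat-6, at 91.6 and 94.7 CPM with sgMiat-96 and between them, at 112 and 121 CPM, in the controls. The log2 fold change was -0.87 ± 0.10 (SE), with an edgeR adjusted p of 0.00035, and the gene lies in the chromosome 5 region. Hspa4l fell from 26.9 and 23.7 CPM to 14.2 and 14.3 CPM, with controls at 72.7 and 73.9 CPM. Of 30 tested chaperone genes, 3 were called higher and 5 lower, shares no larger than the 17.8% and 18.8% of all genes. With length and GC trends removed 1 was called higher and 8 lower, against 10.2% and 9.7% of all genes. The share called lower was then above that of all genes. The calls left without sgMiat-96 replicate 1 were 2, those of Hsph1 and Hspa4l.

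The labelled cell type was set against marker genes. Of 29 neural stem cell markers, 22 had a mean of at least 1 CPM over the 4 libraries, and their summed level was 5657 to 5724 CPM with sgMiat-6 and 5119 to 5702 CPM with sgMiat-96. Sox2 stood at 217 to 286 CPM over the 4 libraries, while Prom1 had 1 count in all of them. Atoh1, whose promoter drives the Cre of the model, had 0 counts in all 6 libraries. Granule neuron lineage markers summed to 1141 to 1200 CPM with sgMiat-6 and to 1113 to 1213 CPM with sgMiat-96, so the groups overlapped.

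Oligodendrocyte lineage markers summed to 3470 to 3596 CPM with sgMiat-6, to 5157 to 5278 CPM with sgMiat-96 and to 2283 to 2362 CPM in the controls. Most of the sum came from a pair of transcription factor genes. Olig1 stood at 1909 and 2015 CPM with sgMiat-6, at 3251 and 3304 CPM with sgMiat-96 and at 970 and 963 CPM in the controls, a log2 fold change of 0.74 ± 0.10 (SE) with an edgeR adjusted p of 0.00055, and it held in all 7 fits. Its neighbour Olig2 stood at 1161 and 1196 CPM, at 1463 and 1499 CPM, and at 993 and 946 CPM in the controls, and was not called with length and GC trends removed (log2 fold change 0.05). Markers of the later lineage were uneven. Mag, Ugt8a and Opalin had 0 counts in all 4 libraries, and Sox10 had 1 and Mbp 9 over the 4. Bcas1, a myelin-associated gene, stood at 79.3 and 85.03 CPM with sgMiat-6, at 104.7 and 104.2 CPM with sgMiat-96 and at 2.32 and 2.33 CPM in the controls, and Galc, a lysosomal enzyme chosen after its values were seen, at 39.5 to 53.7 CPM over the 4. With length and GC trends removed, 3 genes of the list were called higher and 0 lower, against 10.2% and 9.7% of all genes. Only 1 was higher in all 7 fits. As fitted, 17.8% of all genes were called higher and 18.8% lower. Of 10 tested members of the list, 5 were called higher and 1 lower, and 1 was called higher without sgMiat-96 replicate 1.

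Of 26 tested astrocyte and radial glia markers, 6 were called higher and 7 lower, near the 17.8% and 18.8% of all genes. Leaving out sgMiat-96 replicate 1 gave 3 and 5. Their summed level was 8141 to 8206 CPM with sgMiat-6 and 7841 to 7953 CPM with sgMiat-96. Apoe and Tnc, described above, belong to this list. Aldoc, the brain aldolase, rose from 273 and 311 CPM to 503 and 460 CPM, near the controls at 506 and 486 CPM. Gja1 and Gjb6 had 0 counts in all 4 libraries, and Gfap 3 in all. Blood cell markers summed to under 1 CPM in each of the 4, at 0.298 to 0.919 CPM.

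Of 17 genes of class I antigen presentation, 7 were called higher and 3 lower, against 17.8% and 18.8% of all genes, and 2 were called higher without sgMiat-96 replicate 1. H2-D1, a class I heavy chain gene with close copies whose reads may be shared, rose from 7.24 and 6.99 CPM to 15.2 and 13.3 CPM. Erap1, which trims peptides for class I molecules, fell from 11.3 and 9.14 CPM to 4.33 and 5.77 CPM (log2 fold change -1.01, edgeR adjusted p 0.0031) and held in 6 of 7 fits. Ifitm3, an antiviral membrane protein gene, rose from 2.28 and 2.09 CPM to 9.28 and 6.12 CPM, and Usp18, which removes the ubiquitin-like Isg15, from 14.98 and 18.9 CPM to 34.2 and 30.9 CPM. H2-D1, Ifitm3 and Usp18 held in all 7 fits. Of 26 interferon genes, 5 were called higher and 3 lower, near the 17.8% and 18.8% of all genes, 3 were called higher with length and GC trends removed and 3 without sgMiat-96 replicate 1, and the list's median of 0.09 became -0.06 with total-count scaling.

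Further regulators held in all 7 fits. The imprinted gene Peg3 (chr7:6703892-6730462) fell from 11.9 and 5.36 CPM to 0.787 and 1.15 CPM, far under the controls at 97.2 and 77.5 CPM, with a log2 fold change of -3.15 ± 0.39 (SE) and an edgeR adjusted p of 0.00046. Neat1, the long noncoding RNA that builds paraspeckles, fell from 21.8 and 29.3 CPM to 10.7 and 11.8 CPM, with controls at 37.0 and 37.1 CPM. Hes1, a Notch target that keeps neural progenitors undifferentiated, rose from 62.3 and 65.6 CPM to 104 and 90.6 CPM, under the controls at 129 and 129 CPM.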

How the data were processed

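RNA was extracted with a column kit and made into mRNA libraries, per the labels' protocols. The reads were aligned with STAR to mouse GRCm38 (mm10), per the submitters' processing notes. Versions, the counter and its strand setting: not given in the sources used here. The deposited tables give read counts per transcript row. The deposited FPKM values and counts give a whole transcript length, within 0.01 bases, in 137413 of 137413 values. The deposited TPM values were not tested. Rows at 1 count and an FPKM of 0, of which sgMiat-96 replicate 2 held 11223, were set to 0. One row per symbol was kept, that with the highest total over 6 libraries (24063 symbols of 33984 rows), so the sum of kept counts per library was 18438891 to 19650274. Transcripts of one gene can share reads, and 44 symbols had the same counts as another.

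The 3 groups were fitted together in edgeR 4.0.16 (R 4.3.3, quasi-likelihood, TMM scaling, filterByExpr, Benjamini-Hochberg adjustment, threshold 0.05). There were 3 residual degrees of freedom and the common biological coefficient of variation was 0.0986. Each SE is the size of the log2 fold change over the square root of its F statistic in this fit. It is not the spread of the 2 libraries of a guide. A fit of only the 4 sgMiat libraries called 4212 genes in place of 4850. CPM uses TMM library sizes. Trends over log2 length and GC content (GENCODE M21 transcripts, known for 99.5% of tested genes) were removed with a loess offset per library of span 0.3. Positions are those of RefSeq GRCm38.p6, matched by accession for 23392 symbols and by symbol for 483. Alternatives used DESeq2 1.42.0, other scalings, filters and rows, 4 libraries, a replicate block, and leaving out each library.

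In data simulated for this comparison (13003 genes), 46.3% of 67 genes changed 1.5-fold, 89.6% of 67 changed 2-fold and 97.0% of 66 changed 4-fold were recovered, with 11 false of 166 calls. With a simulated length trend (13035 genes), 2654 of 2828 calls were false without its removal and 12 of 175 with it. The simulated trend was the same in both sgMiat-96 libraries and absent from the others, and no GC trend was simulated. In the data the tilt differed between replicates and GC content moved as well, so these rates of false calls may not hold for them.

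The genes named are Miat; the 12 top and 12 bottom called genes by fold change, out of those of at least 5 CPM whose groups did not overlap, predicted genes, clones and pseudogenes aside; the 6 called genes of highest mean CPM; and up to 4 called members of each of 59 lists by adjusted p, or 2 by level where none was called. Others are marked as chosen after their values were seen. The members and lists were chosen with earlier results of these data known. Guide sequences were not used here. A result for 1 gene is not reported here.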

Additional observations from a re-analysis of the deposited data

Results flagged for a closer look

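In 44 genes the libraries of the 2 guides lay on opposite sides of the control libraries, each guide was called against the control and the guides were called against each other. The guides share the 2 control libraries, so the comparisons with the control are not independent. Of the 44, 10 are named here, and the values are log2 fold changes of sgMiat-96 minus sgMiat-6 tested by edgeR. Those lower with sgMiat-96 and higher with sgMiat-6 than the control were Scarb1 (-2.945), Sned1 (-2.627), Pcdh17 (-1.33) and Hsph1 (-0.8747). Those higher with sgMiat-96 and lower with sgMiat-6 than the control were Wnt4 (2.038), Ctsf (1.563), Hist1h4i (1.561), Tmem203 (1.34), Atp5g2 (0.9775) and Ddit4 (0.8228). Sned1, a matrix protein gene, stood at 74.2 and 35.5 CPM with sgMiat-6, at 5.51 and 12.3 CPM with sgMiat-96 and at 29.3 and 24.7 CPM in the controls, with replicates of each guide far apart.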

How the results depend on the processing

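Scaling to the total count called 1380 genes higher, and the median log2 fold change of p53 targets went from 0.12 to -0.03 with it and that of interferon genes from 0.09 to -0.06. Among genes of at least 5 CPM, 334 differed at least 2-fold. Leaving out 1 library gave 1124 to 5740 calls, 636 to 2585 higher, 488 to 3155 lower and 264 to 1098 at least 2-fold; without sgMiat-96 replicate 1, 88 of 231 called named genes lost their call, and without sgMiat-6 replicate 1, 33 did. With the length trend removed 3144 genes were called (1515 lower), and the median of the shortest class of transcripts minus the longest was 0.0056 in place of 0.84; a replicate block with it gave 2661 calls (1374 higher, 1287 lower, 454 at least 2-fold, 0.0078). With length and GC trends removed these were 2626 (1343, 1283, 475, 0.0113), and 1998 (1010, 988, 381, 0.0107) with the replicate block. In the same order and with both trends removed, calls were 1359 (748, 611, 227, -0.00081) without sgMiat-6 replicate 1, 833 (452, 381, 176, 0.0013) without sgMiat-96 replicate 1, 2600 (1321, 1279, and 0.0349 for length) without sgMiat-6 replicate 2, and 2230 (1099, 1131, and 0.0178 for length) without sgMiat-96 replicate 2. The removal sets the length difference near 0 by construction. Leaving out 1 library with both trends removed turned the sign of 6 (sgMiat-6 replicate 1), 18 (sgMiat-6 replicate 2, Mki67 and Olig2 among them), 12 (sgMiat-96 replicate 1) and 6 (sgMiat-96 replicate 2) of 231 called named genes. For each of these libraries, more named genes lost their call with both trends removed than as fitted. With all libraries, log2 fold changes that changed sign were those of Acaca (0.065 length removed, 0.066 with the block, 0.045 length and GC removed, 0.046 with the block), Fzd3 (0.106, 0.104, 0.268, 0.269 in that order), Mbnl1 (0.038, 0.039 with both trends removed, without and with the block), Cox6a1 (-0.057, -0.056, likewise), Gins2 (-0.024, -0.023, likewise) and Tmsb4x (-0.026, -0.026 with the length trend removed). The replicate block alone gave 4043 calls. Replicates share only a number: correlations of replicate differences were 0.05, -0.20 and -0.36 over 10410 genes, and the crossed pairing gave 5757 calls. DESeq2 called 4384 genes, and other scalings, filters, rows and the fit of 4 libraries gave 4212 to 5100 calls. Depth limits genes near 3 counts, where only bounds are given.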
